A study of Sus scrofa with 6 samples.

Results

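Myosin light chains and tropomyosins were followed in 2 skeletal muscles of the pig. Array probes were taken where the gene name was MYL1, MYL2, MYL3, MYLPF, TPM1, TPM2 or TPM3, or where the probe's description held one of these symbols in brackets, the words myosin light chain, or tropomyosin. Of 43603 probes on the array, 18 matched, 12 by gene name and 6 by description, and they covered 6 of the 7 genes. MYL3 had no matching probe. TPM1 had 7 probes, TPM3 had 5, TPM2 had 2, and MYL1, MYL2 and MYLPF had 1 each. The remaining probe was described as tropomyosin 4 (TPM4).

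The arrays held total RNA of the longissimus dorsi muscle (LDM), a pale muscle of the back rich in fast glycolytic fibers, and of the psoas major muscle (PMM), a redder muscle of the loin with more oxidative fibers. Both came from 3 female Landrace pigs that were unrelated, raised on one diet, untreated and slaughtered at 210 days of age, and each muscle had 3 arrays labelled with replicate numbers 1 to 3. Each array measured 1 sample in 1 colour (Cy3). The labels' extraction text speaks of adipose tissue, although the sample source is given as muscle, so the tissue was checked against its markers, as described further on.

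Muscle contracts when myosin heads of the thick filament pull on actin of the thin filament. Each myosin head carries an essential and a regulatory light chain, and tropomyosin runs along the thin filament, where together with the troponins it opens or covers the sites that myosin binds. Slow and fast fibers use different genes for the same part. MYL1 is the essential light chain of fast fibers and MYL3 that of slow fibers. MYLPF is the regulatory light chain of fast fibers, and MYL2 that of slow fibers and of the heart's ventricles. TPM1 encodes the alpha tropomyosin of fast fibers and of the heart, TPM3 the alpha tropomyosin of slow fibers, and TPM2 the beta tropomyosin that pairs with either. TPM1, TPM2, TPM3 and TPM4 also make shorter or alternative tropomyosins in smooth muscle and in cells other than muscle.

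Every probe was a 60-base oligonucleotide. Probes of a gene are numbered here by falling signal in LDM, so that probe 1 is the brightest. The files mark all 18 as unmapped, so no genome position is given. The tropomyosin genes resemble each other over long stretches, and for that reason probes that lie on the same stretch of different genes are shown first. In the lines below, capitals mark the bases that are identical in all probes of the group within their shared stretch. TPM1 probe 6, TPM2 probe 2 and TPM3 probe 5 shared 39 bases, of which 27 (69.2%) were identical in all 3.
TPM1 probe 6: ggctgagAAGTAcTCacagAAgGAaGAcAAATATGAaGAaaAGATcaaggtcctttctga
TPM2 probe 2: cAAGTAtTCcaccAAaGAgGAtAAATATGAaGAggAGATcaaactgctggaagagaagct
TPM3 probe 5: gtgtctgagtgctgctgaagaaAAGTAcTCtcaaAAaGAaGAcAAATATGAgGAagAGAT

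TPM1 probe 2 and TPM2 probe 1 shared 37 bases, with 30 (81.1%) identical.
TPM1 probe 2: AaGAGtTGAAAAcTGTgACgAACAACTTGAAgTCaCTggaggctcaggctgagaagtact
TPM2 probe 1: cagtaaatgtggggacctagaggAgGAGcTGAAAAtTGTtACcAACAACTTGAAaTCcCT

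TPM1 probe 3 and TPM3 probe 1, the tropomyosin probes with the lowest and the highest change between the muscles, overlapped by 17 bases, with 14 (82.4%) identical.
TPM1 probe 3: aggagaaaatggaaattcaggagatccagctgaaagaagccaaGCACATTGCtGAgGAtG
TPM3 probe 1: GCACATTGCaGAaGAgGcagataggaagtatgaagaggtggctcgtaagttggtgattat

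The probes of the slow and the fast regulatory light chain did not align with each other, and they are shown because they carry the light chain comparison.
MYL2 probe: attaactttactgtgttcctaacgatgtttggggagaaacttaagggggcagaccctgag
MYLPF probe: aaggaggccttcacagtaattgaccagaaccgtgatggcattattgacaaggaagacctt

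No probes of different genes aligned without a mismatch. TPM3 probes 4 and 5 overlapped by 43 bases without a mismatch, so they read nearly the same piece of one transcript and are not independent. TPM1 probe 1, the brightest, held AATAAA, the usual polyadenylation signal, on its own strand, as did 12.1% of all probes on the array.

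Signals are given as log2 of the scanner software's processed intensity over the 75th percentile of the same array, so that 1 unit is a doubling. A probe is compared only with itself across arrays, because signals of different probes cannot be set against each other. The share of spots well above background was between 58.5% and 72.4% over the 6 arrays. Of the 18 probes, 17 were well above background on all 6 arrays and were tested. The 1 left out, TPM1 probe 7, was not well above background on any array. Over all 25835 probes tested with limma, 8 passed an adjusted p of 0.05 (0.031%) and 679 had an unadjusted p under 0.05 (2.63%). None of the 17 light chain and tropomyosin probes passed the adjusted threshold, and 1 of them, TPM3 probe 1, had an unadjusted p under 0.05. The median change of the 17 was 0.11, beside -0.04 over all probes tested.

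The replicate numbers paired the arrays, since the 2 arrays of a number deviated together from their muscle means. A fit with the number as a block was therefore also made. All SE in the text and figures come from the fit without the block, also where a p with the block stands beside them. At the level of genes, with the brightest probe standing for each of 2857 named genes, limma called 0 genes (0.0%) without the block, with 107 at an unadjusted p under 0.05. With the block it called 204 (7.14%). TPM3 was among the latter (adjusted p = 0.00952) and was the only 1 of the 6 measured genes that was. The call was lost in other settings. Over all 25835 probes with the same block its limma adjusted p was 0.25. The unadjusted limma p was 0.0061 in that fit and 0.000357 over genes, as limma borrows part of the variance from the other probes fitted. Over genes the adjusted p of TPM3 was 0.124 with the block and quantile normalization, a setting in which 0 genes were called. When the arrays of number 1, 2 or 3 were left out of the block fit over genes, it was 0.184, 0.0652 and 0.171.

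MYL2, the slow regulatory light chain, had signals of 8.89, 8.65 and 8.79 in LDM and of 9.75, 9.23 and 9.18 in PMM. All 3 PMM signals lay above all 3 LDM signals. The change was 0.61 ± 0.30 (SE, n = 3 arrays per muscle), which corresponds to a 1.53-fold higher signal in PMM. The exact permutation test over the 6 arrays gave p = 0.1 (two-sided), the smallest value that 3 against 3 allow. Here and below this test treats the arrays as exchangeable and takes no account of their pairing by number. The limma adjusted p was 1.0 over all probes without the replicate block and 0.331 with it. Over genes it was 0.0744 with the block, and 0.136 with the block and quantile normalization. The difference did not pass the threshold in any of these fits. Within numbers 1, 2 and 3, MYL2 was higher in PMM by 0.86, 0.58 and 0.39. Probes outside the selection that are described as the ventricular form, which MYL2 encodes, changed by 1.24 ± 0.31 and 0.03 ± 0.33 (SE). By description, the size of the MYL2 change thus differs between probes, but it was not checked by sequence that these probes read MYL2.

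MYLPF, the fast regulatory light chain, had signals of 9.60, 8.85 and 9.52 in LDM and of 9.56, 9.15 and 9.08 in PMM. The muscles overlapped fully, and the 3 LDM arrays alone spanned 0.75. The change was -0.06 ± 0.33 (SE), with differences of -0.04, 0.29 and -0.44 within the 3 numbers. It moved above 0 when LDM array 1, LDM array 3 or PMM array 3 was left out.

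MYL1, the fast essential light chain, had signals of 9.78, 9.01 and 9.83 in LDM and of 10, 9.23 and 9.54 in PMM. Here too the muscles overlapped. The change was 0.05 ± 0.36 (SE), and it lay below 0 with quantile normalization, median scaling or normexp background correction. Numbers 1 and 2 were higher in PMM by 0.22 and 0.21 and number 3 was lower by 0.29 (a difference of -0.29). No slow essential light chain can be set beside it, as MYL3 was not measured here.

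**Figure D1:**
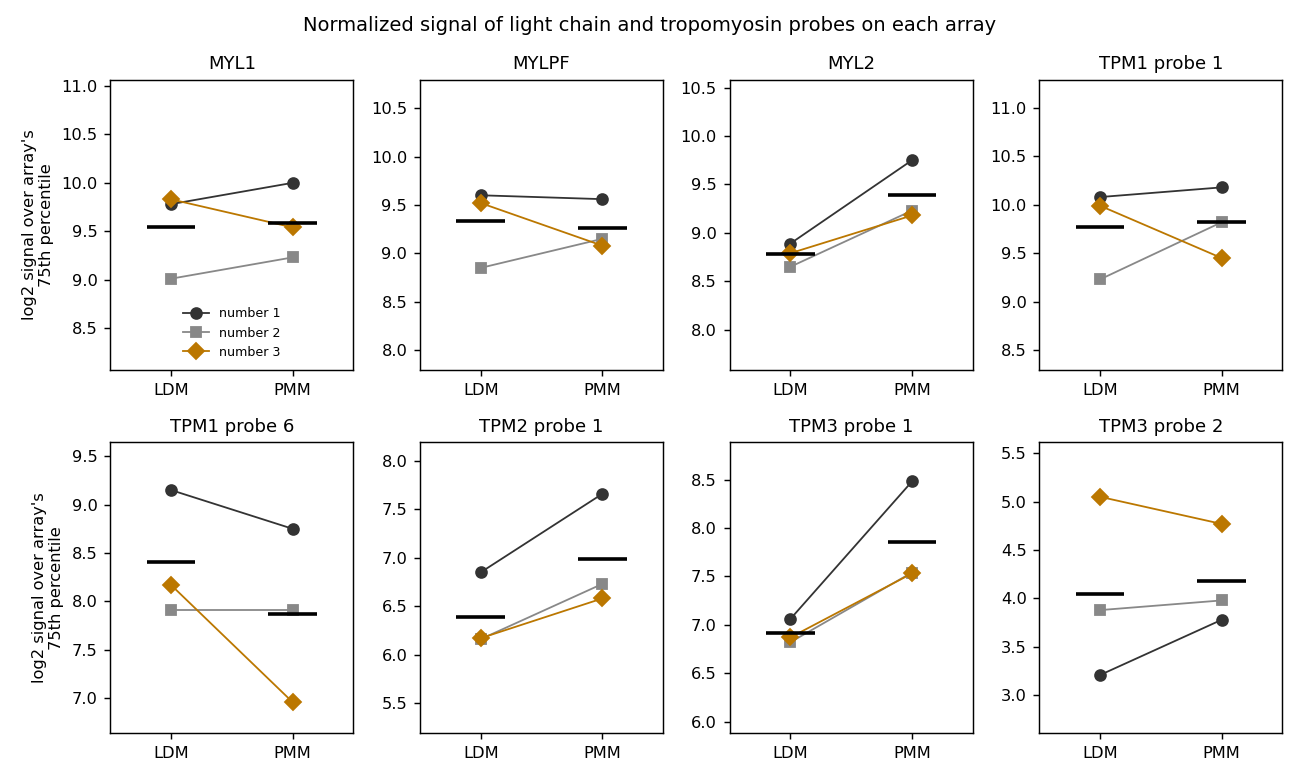
Normalized signal (y axis, log2 over the array's 75th percentile; each panel spans 3 units) of 8 probes on the LDM and PMM arrays. Symbols are single arrays, lines join the 2 arrays of a replicate number, and black bars are muscle means; the 3 PMM points lie above the 3 LDM points for MYL2 and for TPM3 probe 1, and overlap with them in the other 6 panels.

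The tropomyosin genes were measured by several probes each, which did not all give the same picture. TPM3, the slow alpha tropomyosin, had the greatest change of the 17 probes, but on probe 1 only. Its signals were 7.06, 6.82 and 6.87 in LDM and 8.48, 7.54 and 7.53 in PMM, without overlap. The change was 0.93 ± 0.35 (SE), a 1.91-fold higher signal in PMM, with an exact permutation p of 0.1 (two-sided) and a limma adjusted p of 1.0 over all probes. The differences within numbers were 1.42, 0.72 and 0.67, and without PMM array 1 the change was 0.62.

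The 4 other TPM3 probes changed by 0.11 to 0.13, each with muscles that overlapped. Probe 2 had signals of 3.21, 3.88 and 5.05 in LDM and of 3.78, 3.98 and 4.77 in PMM. Probe 3 had 1.61, 2.64 and 3.72 in LDM and 2.13, 2.72 and 3.45 in PMM. On both, the arrays of a muscle differed by far more than the muscles did, and the arrays of number 3 were the highest. Probe 4 had signals of 0.88, 1.13 and 2.52 in LDM and of 1.23, 1.33 and 2.31 in PMM. Probe 5, which overlaps it, had 0.56, 0.72 and 2.08 in LDM and 0.97, 0.97 and 1.77 in PMM. All 4 were higher in PMM in numbers 1 and 2 and lower in number 3, and probes 2 and 3 fell below 0 with normexp background correction. The change on probe 1 exceeded that on the others by 0.80 to 0.82 on average, with an SD between the numbers of 0.16 to 0.30 (n = 3), and by at least 0.47 in each number.

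Over the 6 arrays, TPM3 probe 1 followed the slow light chain MYL2 (Pearson r = 0.99), and its r with the other 4 TPM3 probes was between -0.26 and -0.10. Those 4 followed each other (r from 0.91 to 0.99) and TPM4, the tropomyosin known mainly from cells other than striated muscle (r from 0.79 to 0.96). These r describe 6 arrays from 3 pigs that share scan days and slides, and carry no test. The TPM4 probe itself had signals of 3.27, 4.37 and 4.97 in LDM and of 3.80, 4.67 and 4.95 in PMM, which overlap, and a change of 0.27 ± 0.50 (SE).

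**Figure D2:**
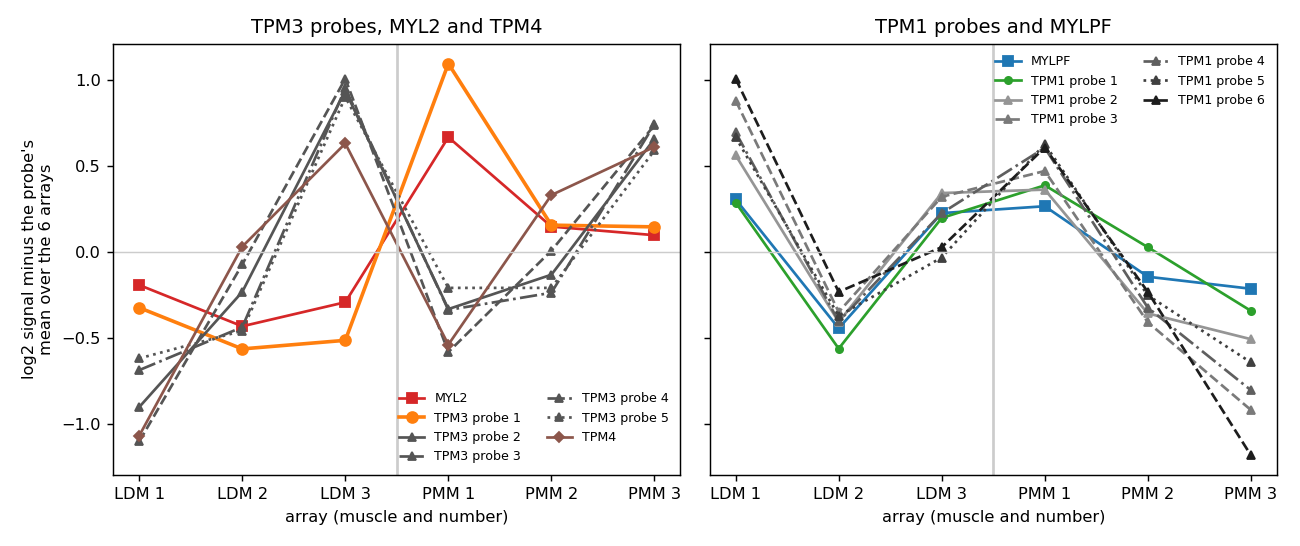
Signal of single probes on each array, as the difference from the probe's own mean over the 6 arrays (y axis, log2); the x axis lists the arrays by muscle and replicate number. On the left, TPM3 probe 1 runs with MYL2, and TPM3 probes 2 to 5 run with TPM4; on the right, the 6 TPM1 probes run with one another and with MYLPF.

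TPM1, the fast alpha tropomyosin, gave changes from -0.57 to 0.05 over its 6 tested probes. Probe 1 had signals of 10.08, 9.23 and 9.99 in LDM and of 10.18, 9.82 and 9.45 in PMM. The muscles overlapped, and the change of 0.05 ± 0.36 (SE) fell below 0 with quantile normalization, median scaling or normexp background correction. The other 5 probes were lower in PMM on average, by less than the spread between arrays in each case.

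TPM1 probe 3 had signals of 9.53, 8.30 and 8.97 in LDM and of 9.12, 8.24 and 7.73 in PMM, a change of -0.57 ± 0.46 (SE). TPM1 probe 6 had 9.15, 7.91 and 8.17 in LDM and 8.75, 7.91 and 6.96 in PMM, a change of -0.54 ± 0.52 (SE). Both were lower in PMM in numbers 1 and 3, most in number 3. In number 2 the difference was -0.06 on probe 3 and too small to show at the precision given on probe 6. The muscles nevertheless overlapped on both, with exact permutation p = 0.4 (two-sided) and limma adjusted p = 1.0. TPM1 probe 2 had 9.67, 8.70 and 9.45 in LDM and 9.47, 8.75 and 8.60 in PMM, a change of -0.34 ± 0.39 (SE). TPM1 probe 4 had 9.38, 8.28 and 8.91 in LDM and 9.29, 8.36 and 7.88 in PMM, a change of -0.35 ± 0.45 (SE). TPM1 probe 5 had 9.28, 8.24 and 8.58 in LDM and 9.24, 8.36 and 7.97 in PMM, a change of -0.18 ± 0.43 (SE). On these 3 probes number 2 was slightly higher in PMM and numbers 1 and 3 lower, and probe 5 moved above 0 without LDM array 1 or PMM array 3. Single arrays moved the others by over 1.5 times as well. Without PMM array 3, probes 2, 3, 4 and 6 changed by -0.16, -0.26, -0.04 and -0.08, and without LDM array 1 by -0.14, -0.27, -0.09 and -0.17. They reached -0.60, -0.95, -0.74 and -0.98 without PMM array 1, and -0.62, -0.89, -0.64 and -0.79 without LDM array 2. The 6 probes ran together over the arrays (r from 0.74 to 0.98).

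The brightest spots came near the upper limit of the scanner. TPM1 probe 1 reached between 62.6% and 100% of the saturation value, and 3 of its 6 spots held saturated pixels, namely 46 of 51 pixels on LDM array 1, 16 of 58 on LDM array 3 and 41 of 52 on PMM array 2. MYL1 reached between 73.8% and 99.6%, with saturated pixels on 27 of 52 on LDM array 1, 5 of 58 on LDM array 3 and 39 of 56 on PMM array 1. The software marked none of these spots as saturated, and the other 15 tested probes held no saturated pixel. MYL2 stayed between 44.8% and 74.8%, MYLPF between 49.4% and 72.8%, and TPM3 probe 1 between 12.2% and 33.7%. The values of MYL1 and of TPM1 probe 1 on those arrays are therefore capped, and the sizes of their changes cannot be read exactly. The part of the scanner's limit in these small changes was not tested.

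**Figure D3:**
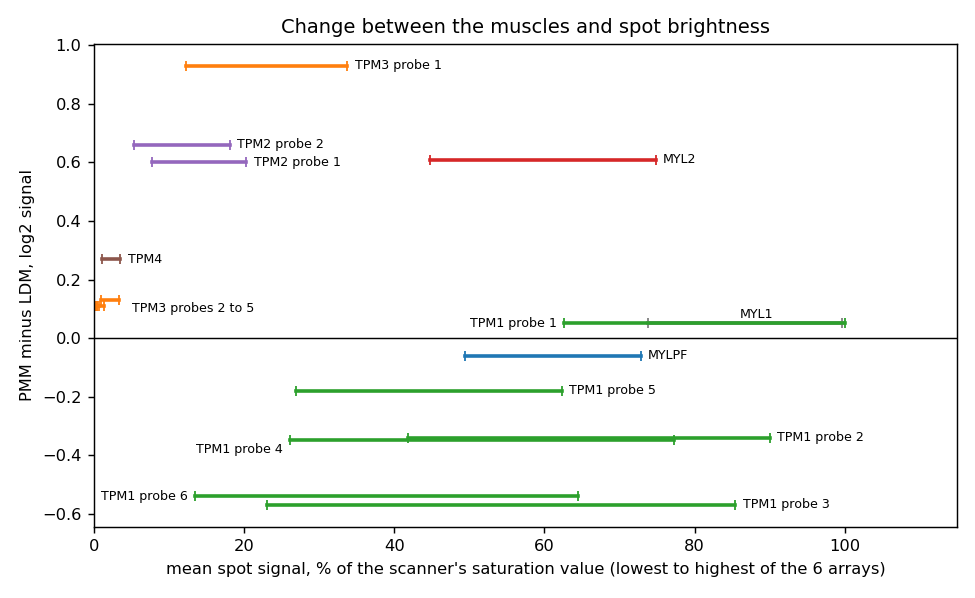
Change between the muscles (y axis, PMM minus LDM, log2) against the mean spot signal as a percentage of the scanner's saturation value (x axis; each bar runs from the lowest to the highest of the 6 arrays). The bars of MYL1 and TPM1 probe 1 end near 100% and lie at 0.05, whereas TPM1 probes 2 to 6 lie between -0.57 and -0.18.

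TPM2, the beta tropomyosin, gave nearly the same result on both of its probes. Probe 1 had signals of 6.85, 6.16 and 6.17 in LDM and of 7.66, 6.73 and 6.58 in PMM, a change of 0.60 ± 0.39 (SE). Probe 2 had 6.67, 5.66 and 5.71 in LDM and 7.55, 6.27 and 6.18 in PMM, a change of 0.66 ± 0.47 (SE). TPM2 was higher in PMM in all 3 numbers, by 0.81, 0.57 and 0.42 on probe 1 and by 0.89, 0.61 and 0.47 on probe 2. The muscles overlapped because LDM array 1 was higher than PMM arrays 2 and 3. The limma adjusted p over all probes was 1.0 for both without the replicate block, and 0.322 and 0.292 with it. Over genes it was 0.0763 with the block, and 0.105 with the block and quantile normalization. Without PMM array 1 the change was 0.27 on probe 1 and 0.21 on probe 2.

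Counted over the 17 probes, 2 had all 3 PMM signals above all 3 LDM signals, beside 3.07% of the 25725 tested probes with 6 values. None (0) had all 3 below, beside 2.87%. In all 3 numbers, 4 probes were higher in PMM (MYL2, both TPM2 probes and TPM3 probe 1), beside 16.4% of the same tested probes. In all 3 numbers, 2 were lower (TPM1 probes 3 and 6), beside 19.4%. Probe 6 counts here only by a difference in number 2 that is below the printed precision. Probes of one gene and pairs that overlap count more than once in these numbers. In all, 11 probes had a change above 0 and 6 below 0.

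**Figure D4:**
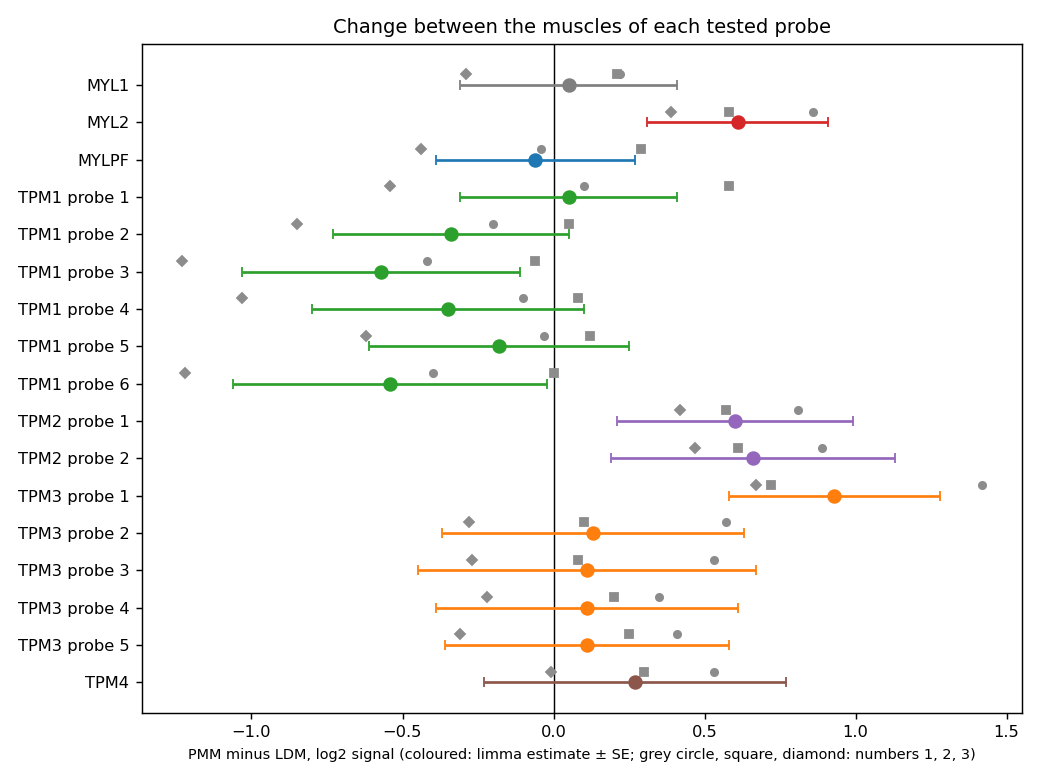
Change of each of the 17 tested probes between the muscles (x axis, PMM minus LDM, log2). Coloured points are limma estimates with bars of ± 1 SE (n = 3 arrays per muscle), and grey symbols are the differences within replicate numbers 1 to 3; MYL2, TPM2 and TPM3 probe 1 lie between 0.60 and 0.93, and MYL1, MYLPF and TPM1 probe 1 within 0.06 of 0, where the sign of MYL1 and TPM1 probe 1 depends on the scaling.

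The slow form was set against the fast form as the change of the first minus the change of the second, for each replicate number. MYL2 minus MYLPF was 0.90, 0.29 and 0.83, with a mean of 0.67 ± 0.34 (SD, n = 3). The difference was above 0 in every number, which is a description without a test, and smallest in number 2. It rests on 1 selected probe of each gene. TPM3 minus TPM1, on probe 1 of each, was 1.31, 0.13 and 1.21, with a mean of 0.88 ± 0.65 (SD, n = 3), but each of these uses a TPM1 spot with saturated pixels. In number 2 that spot is the PMM one, so the sign of 0.13 is not established. Against the 5 TPM1 probes without a saturated pixel, TPM3 probe 1 gave means of 1.11 to 1.51 (SD 0.45 to 0.66, n = 3), with values from 0.60 to 1.90 within the numbers. Over all 6 TPM1 probes, TPM3 probes 2 to 5 gave means of 0.06 to 0.70 over 24 combinations. With the mean of all tested probes of a gene in place of the brightest, the change was 0.28 for TPM3 and -0.32 for TPM1.

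Genes outside the family whose signal ran most like that of MYL2 over the 6 arrays, among 2731 named genes, were DHRS4 (r = 0.993), GLRX1 (r = 0.990) and COX6B (r = 0.989). For MYLPF they were TNNI2 (r = 0.988), the fast troponin I, followed by HN1L (r = 0.980) and RPS6 (r = 0.965). These r were picked as the highest among all genes compared, over only 6 arrays, and carry no test.

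Other genes of the thin and thick filament were taken from lists of partners, of which only the named and measured members could be used. Of 13 thin filament partners 7 were measured, 4 higher and 3 lower in PMM, with a median change of 0.04 beside -0.01 over all genes. TNNI1, the slow troponin I, had signals of 7.25, 7.21 and 7.40 in LDM and of 8.90, 7.79 and 8.27 in PMM. It rose by 1.03 ± 0.35 (SE) in PMM, with a limma adjusted p of 0.00761 with the replicate block, 0.165 with the block and quantile normalization, and 0.999 without the block. TNNT3, the fast troponin T, changed by 0.40 ± 0.33 and TNNT1, the slow troponin T, by 0.26 ± 0.30, and neither passed the threshold. Saturated pixels were not counted for the partner genes. On PMM array 1, TNNT3 and TNNT1 reached 9.99 and 10.02, about as bright as MYL1, whose spot there held saturated pixels. The changes of such bright partners may therefore be capped. Of 12 thick filament partners 6 were measured, 4 higher and 2 lower, with a median of 0.11. MYBPH, myosin-binding protein H, fell by 1.11 on the log2 scale (SE 0.59; limma adjusted p = 0.00239 with the block, 0.0718 with the block and quantile normalization, and 0.999 without the block). MYH2, the heavy chain of fast oxidative fibers, changed by 0.49 ± 0.43 and MYH7, that of slow fibers, by 0.46 ± 0.36, and neither passed.

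Of 11 light chain kinases and phosphatase subunits 3 were measured, with a median of 0.07 and 0 calls. MYLK, the kinase that phosphorylates regulatory light chains in smooth muscle and other cells, changed by 0.53 ± 0.35 (SE), PPP1R12A, the targeting subunit of the light chain phosphatase, by -0.09 ± 0.32, and PPP1CB, its catalytic subunit, by 0.07 ± 0.42. Of 10 light chains and tropomyosins of other cells only MYL6 (0.19 ± 0.44) and TPM4 (0.31 ± 0.43, on another probe than the one above) were measured.

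**Figure D5:**
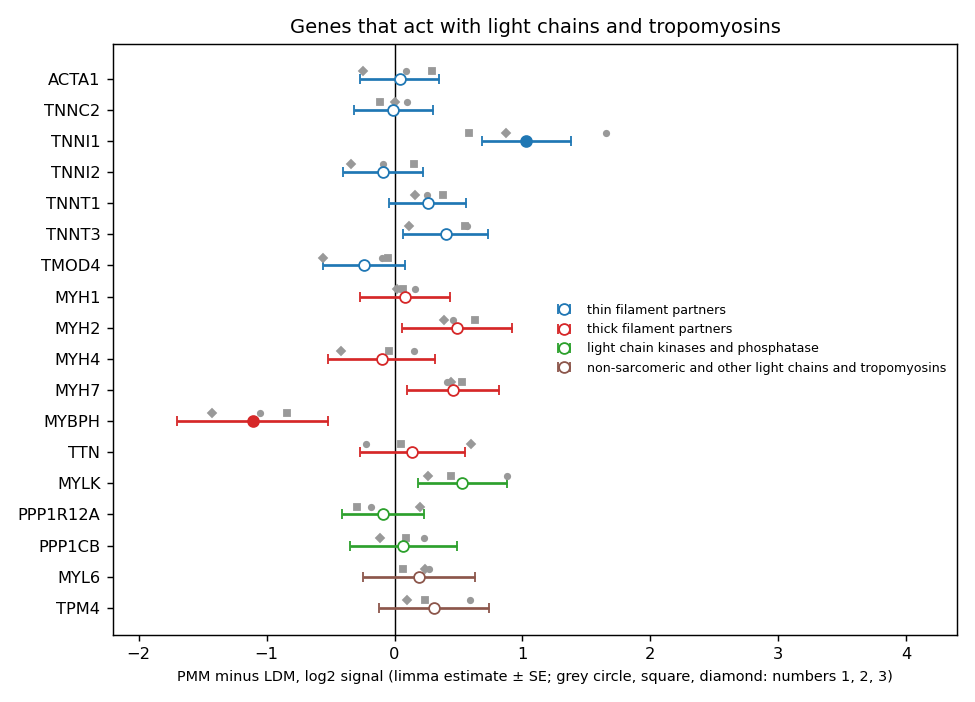
Change between the muscles (x axis, PMM minus LDM, log2) of the 18 measured genes that act with light chains and tropomyosins, 1 probe per gene. Points are limma estimates with bars of ± 1 SE (n = 3 arrays per muscle), both from the fit without the block. They are filled where the adjusted p was under 0.05 in the other fit, with the replicate block, which holds for TNNI1 and MYBPH. Grey symbols are the differences within replicate numbers.

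All 12 skeletal muscle fiber markers were well above background on all 6 arrays, as were 5 of 7 adipocyte markers, so detection alone does not separate the tissues. Of these 12 fiber markers, 9 were higher and 3 lower in PMM, with a median change of 0.11. Saturated pixels were not counted for them. Some, such as CKM and MYH1 (10.33 and 10.2 on PMM array 1), were at least as bright as MYL1 there. The changes of such bright markers may be capped. The largest change was that of MB (myoglobin, the oxygen store of oxidative fibers), which rose by 1.47 ± 0.40 (SE) in PMM. Its limma adjusted p was 0.00216 with the block, 0.117 with the block and quantile normalization, and 0.906 without the block. Muscle samples also hold other cells, and in bulk RNA fewer cells of a type cannot be told apart from less RNA per cell. Smooth muscle makes TPM1 and TPM2 too, and its 3 measured markers of 7 (SMTN, CNN1, MYOCD) were all higher in PMM, with a summed signal of 5.24 to 5.72 in LDM and of 5.83 to 6.33 in PMM. The 5 endothelial markers were also all higher (median 0.28), with summed signals of 5.73 to 7.34 in LDM and of 6.50 to 7.28 in PMM. All 4 measured fibroblast markers of 6 were lower in PMM (median -0.64; 6.61 to 7.78 and 6.15 to 7.24), as were 6 of 7 adipocyte markers (median -0.63; 6.39 to 7.99 and 6.23 to 8.02). The summed signals of all these lists add probes of unlike brightness and mostly follow the brightest, so they are not levels of a cell type. Among adipocyte markers the brightest was FABP4 (5.67 to 7.63 in LDM, 5.71 to 7.72 in PMM), the 1 of 7 that was higher in PMM (0.10 ± 0.69, SE). Among fibroblast markers it was DCN (-0.44 ± 0.43, SE). With the replicate block, limma called COL1A1 and COL1A2 (adjusted p = 0.0124 and 0.0118), collagen chains of fibroblasts, and PLIN1 and CIDEC (adjusted p = 0.0109 and 0.0147), proteins of the fat droplet, lower in PMM. With the block and quantile normalization these 4 adjusted p were 0.0909, 0.0901, 0.122 and 0.124. The 3 measured immune markers of 4 had a median of 0.10 (2.0 to 4.11 and 2.42 to 3.90), and no erythrocyte marker was measured here. The part of these cells in the changes of TPM1, TPM2 and TPM3 was not tested.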

How the data were processed

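The authors hybridised Cy3-labelled total RNA to 1-colour Agilent pig arrays and deposited the processed intensity (background-subtracted and detrended) of every spot from Agilent Feature Extraction 10.5.1.1, not normalized between arrays. Saturated pixels come from the same files. Control spots and outlier spots were left out, repeated spots averaged, and log2 intensity was taken relative to the 75th percentile of each array. A probe was tested if LDM or PMM had it well above background on each of its 3 arrays, using limma 3.58.1 (R 4.3.3), two-sided, with Benjamini-Hochberg adjustment over all probes at 0.05, after a run on simulated data. Genes were named through accessions (3022 probes), gene numbers (1177 probes) or the names in the array's own annotation (883 probes). This named 5082 probes and 3469 genes, and MYL2 is MLC2V in the files. The number of arrays limits the precision. Nothing states that same-numbered arrays came from 1 pig; their deviations correlated at 0.616, 0.697 and 0.56, each number was scanned on 1 day, and numbers 2 and 3 each shared a slide. P-values measure the spread between these samples. Values were given in every array for the brightest probe of each gene and for others of opposite sign or differing by over 0.5, and up to 3 genes per partner list were named by size of change. The members and lists were chosen with earlier results of these data known. The alternatives tried were other normalizations, background correction, detection filters, blocks, the series' value table and leaving out arrays.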

Additional observations from a re-analysis of the deposited data

How the results depend on the processing

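No probe of the family passed the threshold under any of the 17 alternatives tried for probes. With the replicate block, that is paired by number, limma called 17 probes in place of 8, 204 genes in place of 0, and TPM3 (0.93, adjusted p = 0.00952). With slide as a random block it called 300 probes, 166 genes and TPM3 (0.73, adjusted p = 0.0239). With the block and quantile normalization it called 0 genes, with TPM3 at 0.87 (adjusted p = 0.124). Calls among all probes came to 1 with normexp correction, and to 0 with the percentile over detected probes, no detection filter, detection on all 6 arrays, outlier spots kept, or the block with quantile normalization. Leaving out 1 array gave 0 to 1. In a block fit chosen after seeing the data, leaving out number 1, 2 or 3 gave 126, 129 and 0 genes. The block changed no call of another gene of the family. MYL1 (0.05) came to -0.05 with quantile normalization with or without the block, -0.01 with median scaling, -0.12 with normexp, -0.02 with the slide block, -0.04 and -0.03 with numbers 1 and 2 left out of the block fit, and -0.21 to 0.23 without 1 array. TPM1 probe 1 (0.05) came to -0.05, -0.01 and -0.18 under the first 3, -0.22 with number 2 left out of the block fit, -0.32 for the mean of its probes, and -0.22 to 0.23 without 1 array. MYLPF (-0.06) came to 0.13 with number 3 left out and to -0.30 to 0.08 without 1 array. TPM1 probes 2 to 6 ranged from -0.62 to -0.14, -0.95 to -0.26, -0.74 to -0.04, -0.54 to 0.11 and -0.98 to -0.08 without 1 array, TPM3 probes 2 to 5 from -0.29 to 0.63, -0.41 to 0.65, -0.23 to 0.62 and -0.17 to 0.59, and the TPM4 probe from -0.19 to 0.65. TPM3 probe 2 and probe 3 came to -0.03 and -0.02 with normexp and to -0.04 and -0.05 with the slide block. The cause was not tested. Both slow minus fast differences stayed above 0 and within their SD, but most alternatives could not move them. Scaling of a whole array cancels between 2 probes, and the block leaves the mean unchanged. With quantile normalization and normexp, MYL2 minus MYLPF (0.67) came to 0.68 and 0.69, and TPM3 minus TPM1 (0.88) to 0.92 and 0.96. Without 1 array their lowest values were 0.58 and 0.75. The mean of all tested probes gave 0.6 for TPM3 minus TPM1, and is no test for MYL2 and MYLPF with 1 probe each. With 3 arrays per muscle, changes as small as those of the fast forms cannot be separated from 0.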

Other observations

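Some probes for light chains fell outside the selection because their descriptions word the name differently, and they were looked at after the values were seen. A probe described as the complete ventricular isoform of the myosin regulatory light chain, the slow and cardiac form, had signals of 7.40, 7.55 and 7.45 in LDM and of 9.10, 8.48 and 8.54 in PMM. The muscles did not overlap, and the change was 1.24 ± 0.31 (SE), a 2.36-fold higher signal in PMM. The limma adjusted p was 1.0 over all probes and 0.196 with the replicate block. A second probe with a partial match to the same description changed by 0.03 ± 0.33 (SE), with signals of 1.45, 0.94 and 1.71 in LDM and of 1.53, 1.07 and 1.60 in PMM. MYL2 encodes this form, so by description both read the same gene as the MYL2 probe, which changed by 0.61. The 5 probes of LOC733637, described as a regulatory light chain 2 protein, changed by 0.30 to 0.37 with the same sign on each. The probe named MRLC2, a regulatory light chain of cells other than striated muscle, changed by 0.30 ± 0.36 (SE). None of these probes passed the adjusted threshold.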
